A study of Mus musculus with 21 samples.

Results

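Of the 5135 regions that gained MeDIP signal in mouse intestinal adenoma (hypermethylated DMRs), 264 were short regions of 500 bp that already carried a high signal in normal intestine. MeDIP-seq sequences the DNA that an antibody to 5-methylcytidine (clone 33D3) pulls down, and the signal of a region is its read coverage per 1000000 uniquely aligned reads (rpm). The 264 DMRs were chosen by 3 limits, which were a length of 500 bp, a mean of the 6 normal samples of at least 0.6 rpm, and an adenoma mean under 2 times that mean. They made up 6.19% of the 4266 hypermethylated DMRs of 500 bp and 5.14% of all hypermethylated DMRs, within a series of 13980 hyper- and hypomethylated DMRs. The ratio limit removed no region, so length and normal signal alone fixed the group. A further 97 hypermethylated DMRs with a normal mean of at least 0.6 rpm were longer than 500 bp and were not included. Each of the 264 is a single window of 500 bp that passed the authors' criteria without an overlapping window that passed them too.

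All samples came from ileum of male C57BL/6J mice aged 15 to 19 weeks. The groups were normal intestine of 3 wild type B6 mice with the genotype Apc+/+ (B1, B2 and B3), normal tissue of 3 mice with the genotype APC Min/+ (N4, N5 and N6), and 5 adenomas of APC Min/+ mice (Ad4, Ad4-1, Ad5, Ad6 and Ad7). The Min allele is a truncating mutation of *Apc*, which encodes a brake of Wnt signalling, and mice with 1 copy form many adenomas of the small intestine. N4, Ad4 and Ad4-1 came from 1 animal, N5 and Ad5 from another and N6 and Ad6 from another one. Library names place B1, B2, N4, Ad4 and Ad4-1 in series 4, N5, N6 and Ad5 in series 9, B3 and Ad6 in series 10 and Ad7 in series 2. Libraries of input DNA, made without the antibody step, exist for 3 of the samples, which are B3, N4 and Ad7. The tissue label was not checked against marker genes, since no expression values were used here. MeDIP libraries had 13878615 (Ad7) to 26297510 (N5) uniquely aligned reads. At 0.6 rpm a region then holds the bases of 13.9 to 26.3 fragments. Taken as whole fragments, these give an approximate counting error of 19.5% to 26.8% for 1 sample. N5, which was the deepest library, carried the lowest mean signal over the 264 DMRs, and the main counts are given with and without it.

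In mammals, most methylated cytosines lie in CpG sites. CpG islands, stretches where these sites are dense, are mostly free of methylation when they lie at promoters, while islands inside genes, at imprinted genes and at genes used only in germ cells are often methylated in normal tissue. Imprinted genes carry methylation on the allele from 1 parent, set in the germ line and kept in body cells. MeDIP signal rises with both the number of CpG sites and the share of them that is methylated, so the signal alone does not give the share of methylated molecules. In bulk tissue, methylation in fewer cells and less methylation per cell cannot be told apart.

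The sequences of the members with the highest normal signal in an exon, an intron, a promoter and between genes are shown because they give the CpG content behind the signal. They are from NCBIM37, the build the authors call mm9, in the direction of the forward strand, and cover the central 300 bases with every CpG in capitals. Members in an untranslated region are not printed, so that *Chd7* stands for the promoters in place of *Hoxd4*, which had a higher normal signal.
*Pitx1*, chr13:55927601-55927900: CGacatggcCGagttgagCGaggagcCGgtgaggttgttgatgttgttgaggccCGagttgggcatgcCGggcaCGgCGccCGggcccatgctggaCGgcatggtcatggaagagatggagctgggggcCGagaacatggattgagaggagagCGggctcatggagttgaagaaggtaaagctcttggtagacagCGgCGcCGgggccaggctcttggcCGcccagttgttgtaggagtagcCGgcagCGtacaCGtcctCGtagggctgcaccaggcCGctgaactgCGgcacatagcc
*Prdm16*, chr4:154008851-154009150: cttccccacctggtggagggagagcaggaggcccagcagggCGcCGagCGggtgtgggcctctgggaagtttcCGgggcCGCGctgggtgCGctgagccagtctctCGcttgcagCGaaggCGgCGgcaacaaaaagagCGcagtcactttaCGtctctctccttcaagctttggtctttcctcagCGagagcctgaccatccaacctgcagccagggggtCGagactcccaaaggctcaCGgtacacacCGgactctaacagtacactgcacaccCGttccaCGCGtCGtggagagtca
*Chd7*, chr4:8678851-8679150: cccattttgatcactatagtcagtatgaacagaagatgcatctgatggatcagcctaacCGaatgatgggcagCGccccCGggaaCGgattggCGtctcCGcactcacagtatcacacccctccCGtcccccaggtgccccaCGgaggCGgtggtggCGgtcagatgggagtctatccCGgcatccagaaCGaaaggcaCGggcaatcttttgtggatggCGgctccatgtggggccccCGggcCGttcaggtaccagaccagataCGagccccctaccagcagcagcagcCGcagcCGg
Region without a gene, chr17:23013351-23013650: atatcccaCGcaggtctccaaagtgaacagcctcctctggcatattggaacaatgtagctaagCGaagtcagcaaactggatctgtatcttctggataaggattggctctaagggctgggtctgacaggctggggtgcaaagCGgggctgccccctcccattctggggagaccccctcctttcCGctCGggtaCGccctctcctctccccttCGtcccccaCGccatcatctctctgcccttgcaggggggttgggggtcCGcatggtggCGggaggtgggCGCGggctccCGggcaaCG
The 300 bases held 22 CpG sites at *Pitx1*, 21 at *Prdm16*, 19 at *Chd7* and 14 in the region without a gene.

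Over the 264 DMRs, the median normal mean was 0.742 rpm, with a range from 0.6 to 2.92 rpm, and the median adenoma mean was 1.07 rpm, with a range from 0.816 to 3.95 rpm. Because these means chose the DMRs, they are a description and carry no test. The median ratio of adenoma to normal mean was 1.4, against 1.56 for the 4002 other DMRs of 500 bp, whose median normal mean was 0.230 rpm. The ratios ran from the least that the authors' criteria allow up to 1.86, and 51.5% of them lay under 1.4. In rpm the order was the other way round, with a median gain of 0.328 rpm for the members and 0.137 rpm for the other DMRs of 500 bp. Within the group, the ratio hardly moved with the normal level, at 1.4 in the 129 members below the median normal mean and 1.39 in the other 135, while the gain was 0.269 rpm and 0.392 rpm. The authors' criterion cuts the ratios from below and so sets a least gain that rises with the normal level. The order of the gains, here and against the other DMRs, follows in large part from that. At the lower limit, the regions just inside were in *Gm11927* with a normal mean of 0.6 rpm, and on chromosome 11 and in *Adamts17* with 0.602 rpm each, and the 3 regions just outside had 0.598 rpm each. The members nearest to the ratio limit were those at *Gp1bb* with a ratio of 1.86 and at *Tmem151b* and on chromosome 13 with 1.78 each.

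**Figure D1:**
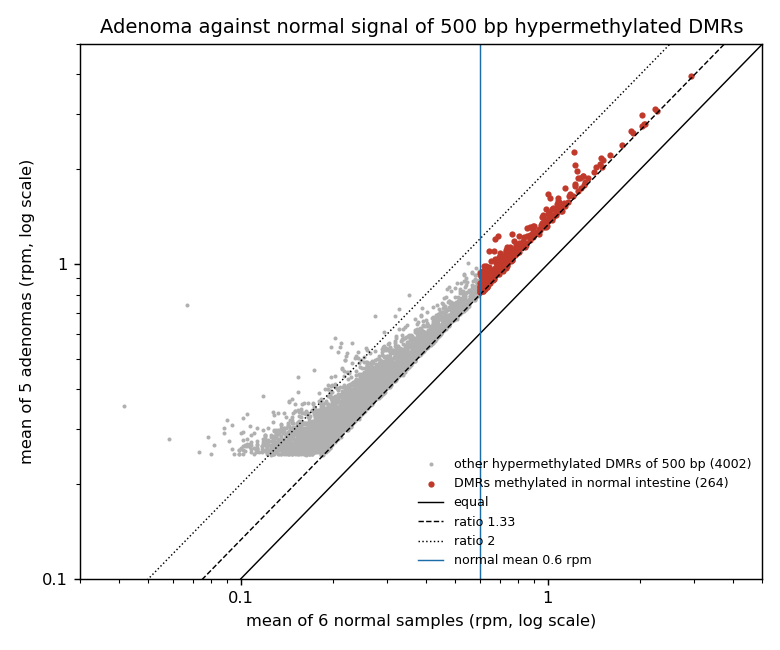
Mean signal of the 5 adenomas against that of the 6 normal samples for the 4266 hypermethylated DMRs of 500 bp, both in rpm on log scales. The 264 members (red) lie to the right of the line at 0.6 rpm, between the dashed line of the authors' ratio criterion and the dotted line of a ratio of 2, and run up to 2.92 rpm in normal intestine and 3.95 rpm in adenoma.

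Averaged over the 264 DMRs, the signal was 1.22 rpm in Ad4, 1.22 rpm in Ad4-1, 1.28 rpm in Ad5, 1.19 rpm in Ad6 and 1.26 rpm in Ad7, against 0.824, 0.977 and 0.918 rpm in B1, B2 and B3 and 0.844, 0.718 and 0.947 rpm in N4, N5 and N6. The 5 adenomas lay within a narrow band (1.24 ± 0.0328 rpm, SD, n = 5) and the normal samples were wider apart (0.871 ± 0.0955 rpm, SD, n = 6). Over the other DMRs of 500 bp, which hold fewer CpG sites, N5 stood at 0.253 rpm and the other normal samples between 0.252 and 0.270 rpm. N5 was the lowest normal sample in 123 members, or 46.6%, against 19.6% of all hypermethylated DMRs. In 104 members, or 39.4%, each adenoma exceeded each of the 6 normal values. This was the case for 44.5% of all hypermethylated DMRs, and since the regions had been selected on this contrast nothing further is read from either share. Without N5 it was 109 members, or 41.3%, against 51.2%. The median over all merged DMRs was 0.34 to 0.36 rpm in the normal samples and 0.29 to 0.3 rpm in the adenomas. With each sample scaled to the same median the count was 257, or 97.3%, against 94.2% of all hypermethylated DMRs. The median log2 ratio was then 0.67 in place of 0.46. The merged DMRs were chosen on adenoma against normal intestine and most are hypomethylated, so this scaling by itself raises the adenomas. For the median member the adenoma was higher in 29 of the 30 pairs of an adenoma and a normal sample.

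**Figure D2:**
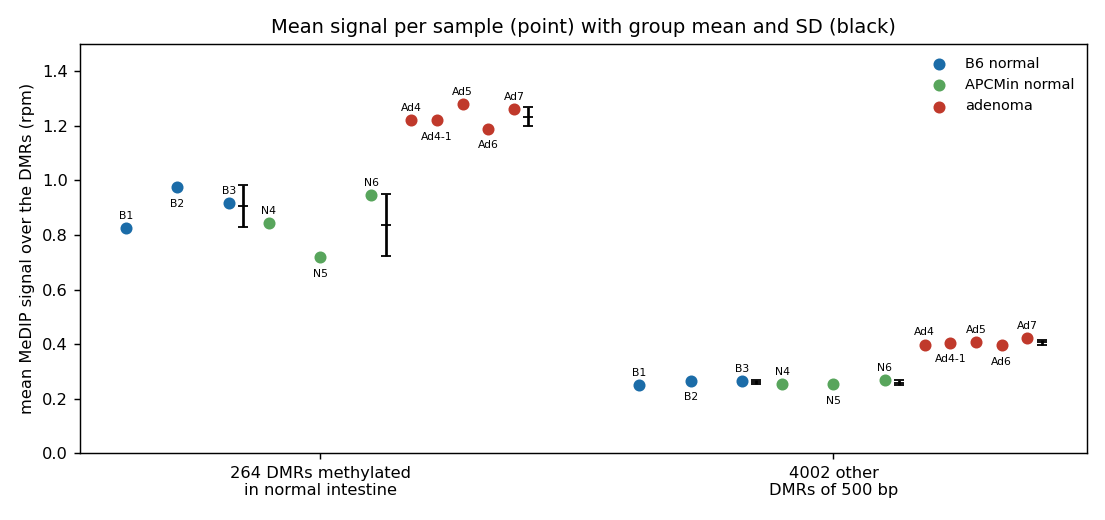
Mean MeDIP signal in rpm per sample, over the 264 members on the left and the 4002 other hypermethylated DMRs of 500 bp on the right, with the mean and SD of each group in black. N5 lies lowest on the left, at 0.718 rpm, and among the other normal samples on the right, at 0.253 rpm.

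Adenoma was also set against normal intestine of its own animal. Ad4 lay above N4 in 262 members, Ad4-1 above N4 in 260, Ad5 above N5 in 262 and Ad6 above N6 in 249. All 4 adenomas lay above the normal sample of their animal in 241 members, or 91.3%, against 90.0% of all hypermethylated DMRs, a share that the choice of regions also fixes in large part. The median difference was 0.340 rpm for Ad4, 0.360 rpm for Ad4-1, 0.465 rpm for Ad5 and 0.230 rpm for Ad6, so animal 5, whose normal sample was low, had the largest difference. For Ad4 and Ad4-1, 2 adenomas of 1 animal, the median signed difference (Ad4 minus Ad4-1) was 0.015 rpm, with Ad4 higher in 136 members. Positive and negative differences cancel in this median, so it does not give the usual size of the difference at a region.

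The member with the highest normal signal lay in a coding exon of *Pitx1* (chr13:55927501-55928000), a homeobox factor of hindlimb and pituitary development, within a CpG island and with 39 CpG sites. Its signal was 2.35, 3.70 and 3.32 rpm in B1, B2 and B3, 2.95, 2.12 and 3.08 rpm in N4, N5 and N6, and 4.15, 3.94, 4.18, 3.86 and 3.60 rpm in Ad4, Ad4-1, Ad5, Ad6 and Ad7. B2 reached the range of the adenomas, so the groups overlapped by that sample alone, and the ratio of the means was 1.35. *Prdm16* (chr4:154008751-154009250, intron, 33 CpG sites), a zinc finger factor of brown fat and blood stem cells, showed 1.77 to 2.68 rpm in the 6 normal samples, with a median of 2.21 rpm, and 3.09, 2.84, 3.46, 3.09 and 2.87 rpm in Ad4, Ad4-1, Ad5, Ad6 and Ad7. There the groups did not overlap. A member across *Hoxd4* and *Hoxd3* (chr2:74565251-74565750, 39 CpG sites), patterning genes of the HoxD cluster, had 1.72, 2.80 and 2.53 rpm in B1, B2 and B3, 2.53, 1.69 and 2.19 rpm in N4, N5 and N6, and 2.56 to 3.54 rpm in the adenomas. Only Ad6, at 2.56 rpm, fell below the highest normal sample.

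*Itpkb*, which encodes a kinase of inositol phosphates in lymphocyte signalling, held 2 members. The one in an intron (chr1:182266501-182267000, 17 CpG sites) went from a normal mean of 2.07 ± 0.284 rpm (SD, n = 6) to 2.78 ± 0.413 rpm in adenoma (SD, n = 5), and the one in a coding exon (chr1:182262751-182263250, 26 CpG sites) from 2.06 ± 0.324 rpm to 2.78 ± 0.216 rpm. The levels of the pair were nearly alike although they lie apart and share no window. *Chd7* (chr4:8678751-8679250), a chromatin remodeller, carried its member over a coding exon at the start of a shorter transcript, with 2.16, 2.34 and 2.40 rpm in B1, B2 and B3, 1.89, 1.30 and 2.11 rpm in N4, N5 and N6, and 2.49 to 3.14 rpm in the adenomas. The highest normal sample, B3, lay below the lowest adenoma, Ad5. *Ttll10* (chr4:155409001-155409500, coding exon, 36 CpG sites), a polyglycylase of the tubulin ligase family, had 0.97 rpm in N5, 1.81 to 2.52 rpm in the other normal samples and 2.66 to 3.33 rpm in the adenomas. The region without a gene on chromosome 17 (chr17:23013251-23013750, 25 CpG sites) had 1.27 rpm in N5, 1.65 to 2.29 rpm in the other normal samples and 2.30 to 2.98 rpm in the adenomas, and was the only one of the 10 members with the highest normal signal outside a gene. The member at *Shank2* (chr7:151361501-151362000, 31 CpG sites), which encodes a scaffold of synapses and epithelial membranes, went from 1.74 ± 0.324 rpm to 2.39 ± 0.173 rpm.

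**Figure D3:**
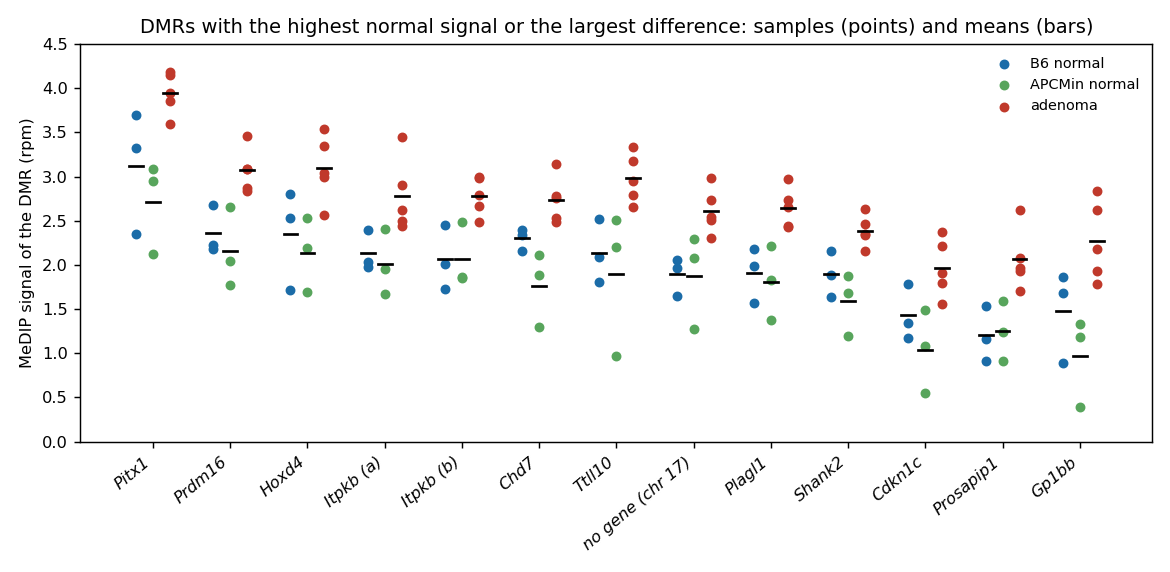
MeDIP signal in rpm of each sample (points) and group means (bars) for the 13 members that are among the 10 with the highest normal mean or the 10 with the largest difference of means. Normal samples start at or above 0.97 rpm for the 10 members on the left, and the lowest point of *Gp1bb* and *Cdkn1c* is N5, at 0.39 and 0.55 rpm.

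Several members lay at imprinted genes. A list of 65 imprinted genes, put together after the values had been seen, held 3 genes with a member and 16 with any hypermethylated DMR. DMRs at these genes made up 1.14% of the members and 0.389% of all hypermethylated DMRs. A list made with the values known can favour the members, so the difference between these shares is not read as a result. The sequences of the 3 members are shown because the genes are imprinted. The stretch printed is the longest without annotated untranslated bases, up to 300 bases.
*Plagl1*, chr10:12810272-12810571: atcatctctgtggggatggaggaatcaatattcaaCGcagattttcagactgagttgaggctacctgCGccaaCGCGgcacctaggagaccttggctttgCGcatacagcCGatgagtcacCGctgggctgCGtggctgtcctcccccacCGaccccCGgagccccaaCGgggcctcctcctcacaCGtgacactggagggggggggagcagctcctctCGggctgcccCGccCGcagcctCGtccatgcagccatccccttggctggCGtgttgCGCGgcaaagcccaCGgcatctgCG
*Inpp5f*, chr7:135831751-135832002: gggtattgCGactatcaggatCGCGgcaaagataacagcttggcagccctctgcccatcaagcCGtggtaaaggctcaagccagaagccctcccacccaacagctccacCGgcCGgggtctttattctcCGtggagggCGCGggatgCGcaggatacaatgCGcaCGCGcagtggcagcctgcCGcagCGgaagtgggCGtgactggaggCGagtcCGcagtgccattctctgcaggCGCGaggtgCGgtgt
*Cdkn1c*, chr7:150645851-150646150: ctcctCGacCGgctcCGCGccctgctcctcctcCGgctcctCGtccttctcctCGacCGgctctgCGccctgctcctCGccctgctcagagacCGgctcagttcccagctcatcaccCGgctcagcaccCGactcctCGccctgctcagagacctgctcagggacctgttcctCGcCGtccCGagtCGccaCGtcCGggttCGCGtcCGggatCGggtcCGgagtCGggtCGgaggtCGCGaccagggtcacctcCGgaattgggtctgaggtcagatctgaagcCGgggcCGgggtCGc
The member at the start of *Plagl1* (chr10:12810251-12810750), a zinc finger factor that is expressed from the paternal allele, covered the promoter and part of an exon and held 41 CpG sites. It had 1.57, 2.18 and 1.99 rpm in B1, B2 and B3, 1.83, 1.38 and 2.21 rpm in N4, N5 and N6, and 2.74, 2.43, 2.97, 2.65 and 2.44 rpm in Ad4, Ad4-1, Ad5, Ad6 and Ad7. The groups did not overlap, and the ratio was 1.42. The member at *Inpp5f* (chr7:135831751-135832250, 37 CpG sites), a phosphoinositide phosphatase gene, lay within the gene at the start of a shorter transcript, with 1.11, 1.38 and 1.43 rpm in B1, B2 and B3, 0.85, 1.02 and 1.14 rpm in N4, N5 and N6, and 1.41 to 1.69 rpm in the adenomas. B3 at 1.43 rpm lay just above Ad5 at 1.41 rpm. The member in *Cdkn1c* (chr7:150645751-150646250), which encodes a cell cycle inhibitor expressed from the maternal allele, lay wholly in a coding exon with 54 CpG sites. Its signal was 1.34, 1.78 and 1.17 rpm in B1, B2 and B3, 1.08, 0.55 and 1.49 rpm in N4, N5 and N6, and 2.21, 1.91, 2.37, 1.56 and 1.80 rpm in Ad4, Ad4-1, Ad5, Ad6 and Ad7. Ad6 lay below B2, and N5 lay far below the other normal samples.

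Genes of germ cells and of the early embryo held several of the promoter members. A list of 60 such genes, also put together after the values had been seen, held 7 genes with a member and 14 with any hypermethylated DMR. DMRs at these genes made up 2.65% of the members and 0.292% of all hypermethylated DMRs. As with the imprinted genes, a list made with the values known can favour the members, and the difference is not read as a result. *Tdrd6* (chr17:43767001-43767500, 43 CpG sites), which encodes a tudor protein of the germ cell chromatoid body, had 1.09 ± 0.228 rpm in normal intestine and 1.49 ± 0.116 rpm in adenoma. *Rbm46* (chr3:82680251-82680750, 40 CpG sites), an RNA-binding protein of meiosis, had 0.84, 1.13 and 0.95 rpm in B1, B2 and B3, 1.16, 0.61 and 1.42 rpm in N4, N5 and N6, and 1.31 to 1.87 rpm in the adenomas, and Ad6 at 1.31 rpm lay below N6 of the same animal. *Tdgf1*, an EGF-like factor of the early embryo, had 0.993 ± 0.161 and 1.32 ± 0.128 rpm, and *Rpl10l*, a testis copy of a ribosomal protein gene, 0.745 ± 0.123 and 1.09 ± 0.144 rpm. At *Prr23a*, with 44 CpG sites, the normal samples had 0.56 to 0.73 rpm and the adenomas 0.81 to 1.10 rpm, and at *Zfp42*, a marker of pluripotent cells, 0.52 to 0.70 rpm and 0.72 to 1.04 rpm. In both the groups did not overlap, and both members lay at the promoter. *Brdt*, a bromodomain gene of spermatogenesis, held its member in an intron, where the promoter of *Gm8152* is also annotated.

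For 18 members, the promoter touched was that of the outermost 5' start of a protein-coding gene. The 10 with the highest normal mean were *Plagl1*, *Gm10775*, *Hand1*, *Tdrd6*, *Ptchd3*, *Rbm46*, *Tdgf1*, *Rpl10l*, *Fbxo27* and *Runx3*. *Hand1* (chr11:57646751-57647250, 16 CpG sites), a bHLH factor of heart and gut mesenchyme, had 1.02, 1.78 and 1.19 rpm in B1, B2 and B3, 1.32, 0.99 and 1.65 rpm in N4, N5 and N6, and 1.80, 1.72, 1.87, 1.88 and 1.83 rpm in Ad4, Ad4-1, Ad5, Ad6 and Ad7. The SD was 0.327 rpm in the normal samples and 0.0644 rpm in the adenomas, and B2 lay above Ad4-1. *Runx3* (chr4:134676751-134677250, 18 CpG sites), a factor of T cell and gut development, had 0.46 to 0.81 rpm in the normal samples and 0.87 to 1.2 rpm in the adenomas, without overlap. *Gm10775* went from 1.41 ± 0.318 to 1.96 ± 0.118 rpm, *Ptchd3* from 1.08 ± 0.234 to 1.51 ± 0.122 rpm and *Fbxo27* from 0.743 ± 0.152 to 1.11 ± 0.152 rpm.

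The published sets that the study had tabulated were counted in the same way as the lists of imprinted and germ cell genes. Genes co-occupied by both Polycomb complexes in mouse ES cells lay at 13 members, or 4.92%, and 2.77% of all hypermethylated DMRs. Genes with H3K27me3 in human ES cells lay at 24 members, or 9.09%, against 5.96%, and EED targets at 23, or 8.71%, against 5.02%. The share for PRC2 targets was 3.79% against 3.43%, for TET1 targets 12.9% against 9.43% and for MLL targets 3.41% against 2.88%. Markers of intestinal stem cells lay at 1 member (0.379%, against 0.234% of all hypermethylated DMRs) and those of late transit amplifying cells at 1 (0.379% against 0.253%). Those of early transit amplifying cells lay at 3 (1.14% against 0.798%). Markers of Paneth cells and Wnt targets of colon cancer lay at none, against 0.117% each of all hypermethylated DMRs. Members lay outside genes less often (22% against 38.7% of all hypermethylated DMRs) and touched promoters more often (20.8% against 9.66%). The shares of the gene sets were not adjusted for this, so none is read as a trait of the members.

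Of the 8 gene lists written for gut biology, the Wnt pathway held 3 genes with a member and the immune cell list 1 (*Runx3*). DMRs at these lists made up 1.14% and 0.379% of the members, against 0.292% and 0.0389% of all hypermethylated DMRs. The lists of DNA methylation machinery, Polycomb components, intestinal stem cell markers, epithelial differentiation, smooth muscle and fibroblasts, and endothelium and enteric neurons held none. In the Wnt pathway, 12 of 63 genes held any hypermethylated DMR. The *Apc* member (chr18:34475751-34476250) lay wholly in a coding exon with 13 CpG sites, with 0.82, 0.88 and 0.74 rpm in B1, B2 and B3, 0.98, 0.84 and 0.83 rpm in N4, N5 and N6, and 1.32, 1.17, 0.89, 1.21 and 1.15 rpm in Ad4, Ad4-1, Ad5, Ad6 and Ad7. Ad5 lay below N4, so the groups overlapped. *Wnt5b*, a ligand, went from 0.785 ± 0.167 to 1.11 ± 0.110 rpm in an intron, and *Gsk3b*, the kinase that marks beta-catenin for decay, from 0.680 ± 0.174 to 1.01 ± 0.142 rpm in the untranslated part of an exon.

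The members were rich in CpG sites and in exons. They held a median of 13 CpG sites, against 7 in the other DMRs of 500 bp and 8 in all hypermethylated DMRs, and a genome window of 500 bp without unknown bases held a median of 3. Exons were touched by 127 members, or 48.1%, and by 765 of the 4002 other DMRs of 500 bp, and coding exons by 41.3% against 14.3%. Promoters of any transcript, from 1000 bp upstream to 500 bp downstream, were touched by 55 members, or 20.8%, against 7.72%. CpG islands, defined as at least 300 bp with 50% GC and with CpG at 0.6 of the number that the base content predicts, were touched by 123 members, or 46.6%, against 9.90%, and 87 of these 123 lay outside promoters. Members without a gene numbered 58, or 22%, against 40.9%. Over all hypermethylated DMRs, signal in normal intestine rose with CpG sites (Spearman's rho 0.40 across 5135 regions that share samples and libraries), so the limit on normal signal also selected on CpG sites.

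**Figure D4:**
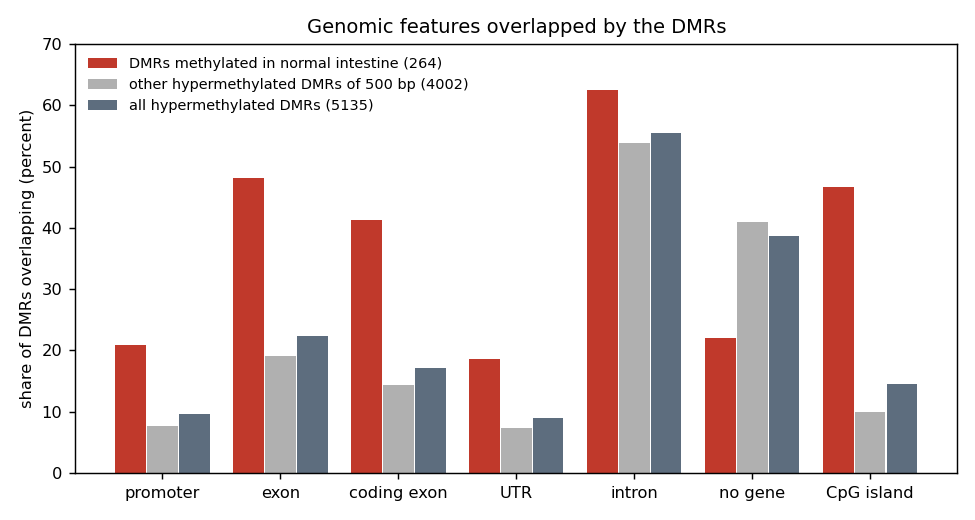
Share of DMRs in percent that overlap a genomic feature by at least 1 base, for the 264 members (red), the 4002 other hypermethylated DMRs of 500 bp (light grey) and all 5135 hypermethylated DMRs (dark grey). Exons are touched by 48.1% of the members and 22.3% of all, and CpG islands by 46.6%, 9.90% and 14.5%.

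Split by the number of CpG sites, the exon share stayed above that of the other DMRs of 500 bp in each class, and the promoter share did not. With fewer than 10 sites, exons were touched by 23.9% of 46 members and 13.5% of 3024 others, and promoters by 10.9% and 5.26%. With 10 to 19 CpG sites, exons were touched by 45.5% of 154 members and 34.1% of 870 others, and with 20 to 29 sites by 68.3% of 41 members and 48.5% of 68 others. With 30 or more sites the shares were 78.3% of 23 members and 65.0% of 40 others, while all 176 hypermethylated DMRs of that class, longer ones included, had 76.7%, close to the members. Promoters were touched by 17.5% and 11.7% with 10 to 19 sites, by 24.4% and 36.8% with 20 to 29 sites and by 56.5% and 57.5% with 30 or more sites. The members with 30 or more sites had a mean of 1.27 rpm in normal intestine, and the 40 others of that class had 0.244 rpm. Per CpG site, the median signal in normal intestine was 0.0611 rpm in the members and 0.0356 rpm in the other DMRs of 500 bp. The limit on normal signal fixes the order of the class means and bears on the signal per site. Both are therefore a description and are not read as a trait of the members.

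Signal rose with CpG sites in all samples, and least in N5. In members with fewer than 10 CpG sites, N5 had 0.686 rpm and the other normal samples 0.689 to 0.791 rpm. In members with 20 to 29 sites, N5 had 0.736 rpm and the others 1.00 to 1.22 rpm, and in members with 30 or more sites 0.883 rpm and 1.12 to 1.56 rpm. As a share of the mean of the other normal samples, N5 stood at 0.923, 0.844, 0.662 and 0.656 from the lowest to the highest class. The low values of N5 were not particular to the members, since in the other DMRs of 500 bp the share was 0.989, 0.940, 0.763 and 0.573 over the same classes. The adenomas stayed together, at 1.72 to 2.00 rpm in the highest class, and Ad5 of the same animal was the highest of them there. What set N5 apart was not tested.

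**Figure D5:**
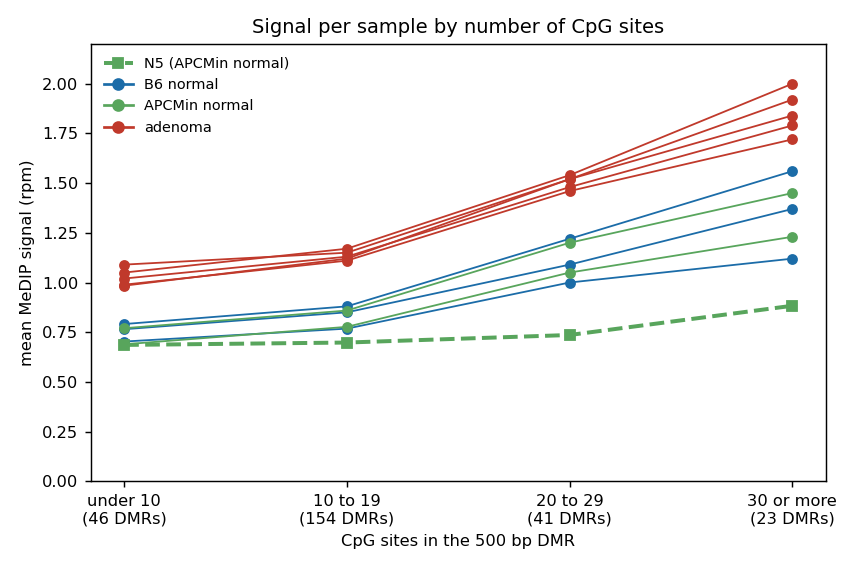
Mean MeDIP signal in rpm of each sample over members grouped by the number of CpG sites in the 500 bp, with 46, 154, 41 and 23 DMRs from left to right. N5 (dashed) starts beside the other normal samples at 0.686 rpm and ends below them at 0.883 rpm, while the adenomas end at 1.72 to 2.00 rpm.

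The effect of N5 on the group was counted. Without N5, the median ratio of adenoma to normal mean was 1.36, and 187 of the 264 members kept a ratio past the authors' criterion. Leaving out any other single sample, adenomas included, kept 224 to 255. The normal mean stayed at 0.6 rpm or more in 260 members without N5. Several of the members with the most CpG sites had a wide range among the normal samples. At *Gp1bb*, a platelet glycoprotein gene with 60 CpG sites (chr16:18621001-18621500), the 6 normal samples ran from 0.39 rpm in N5 over a median of 1.25 rpm to 1.86 rpm in B3, and the signal was 1.93, 2.18, 2.62, 1.78 and 2.84 rpm in Ad4, Ad4-1, Ad5, Ad6 and Ad7. Ad6 lay below B3, and this DMR borders another hypermethylated DMR. *Tmem151b* (51 CpG sites) had 0.39 to 1.10 rpm in the normal samples and 0.84 to 1.82 rpm in the adenomas, with the lowest value in N4 rather than N5, and 0.77 rpm in the input of B3. *Npr1* (52 CpG sites), a natriuretic peptide receptor gene, had 0.55 to 1.17 rpm and 1.17 to 1.47 rpm, with N6 and Ad5 level at 1.17 rpm. *Dhx35* (58 CpG sites), a helicase gene, had 0.60 to 1.00 rpm in the normal samples and 1.05 to 1.30 rpm in the adenomas, without overlap. *Prosapip1*, a synaptic scaffold gene with 28 CpG sites, had 0.91 to 1.59 rpm and 1.71 to 2.62 rpm, without overlap.

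Further sequences show the range of CpG content. They are the member with the most CpG sites, the 1 member with none, and the DMR of 500 bp outside the group with the largest ratio, each over its central 300 bases.
*Gp1bb*, chr16:18621101-18621400: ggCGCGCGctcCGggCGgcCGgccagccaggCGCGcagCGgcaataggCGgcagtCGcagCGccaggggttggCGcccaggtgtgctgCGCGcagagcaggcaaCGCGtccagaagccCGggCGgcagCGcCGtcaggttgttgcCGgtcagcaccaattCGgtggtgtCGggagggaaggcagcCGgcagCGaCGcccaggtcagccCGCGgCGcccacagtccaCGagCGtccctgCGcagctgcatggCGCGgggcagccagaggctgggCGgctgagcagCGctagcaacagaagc
Region without a CpG site, chr2:174409351-174409650: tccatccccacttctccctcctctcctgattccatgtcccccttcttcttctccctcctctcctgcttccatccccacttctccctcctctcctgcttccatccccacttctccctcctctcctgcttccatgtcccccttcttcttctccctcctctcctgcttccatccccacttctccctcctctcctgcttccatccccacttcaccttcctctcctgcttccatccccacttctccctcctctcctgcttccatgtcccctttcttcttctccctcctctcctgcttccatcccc
*Gata4*, outside the group, chr14:63859101-63859400: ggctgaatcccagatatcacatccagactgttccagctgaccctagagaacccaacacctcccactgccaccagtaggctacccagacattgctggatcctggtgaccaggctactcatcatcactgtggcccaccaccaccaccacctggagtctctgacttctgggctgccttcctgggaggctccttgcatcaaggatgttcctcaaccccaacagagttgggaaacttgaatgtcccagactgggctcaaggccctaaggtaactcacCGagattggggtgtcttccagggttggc
The region without a CpG site (chr2:174409251-174409750) lay between genes and was built of short repeated runs of pyrimidines, with 4 CpG sites when 300 bases on each side are added. It had 0.64, 0.76 and 0.75 rpm in B1, B2 and B3, 0.92, 0.69 and 0.67 rpm in N4, N5 and N6, and 1.04, 1.02, 0.83, 1.10 and 0.94 rpm in Ad4, Ad4-1, Ad5, Ad6 and Ad7. Its input signal was 0.34, 0.06 and 0.07 rpm in B3, N4 and Ad7, below the MeDIP signal of each. Fewer than 5 CpG sites were found in 3 members. The other two, in *Creb5* and *Pfkp*, held 4 sites each and had normal means of 1.04 and 0.635 rpm. The *Gata4* DMR outside the group (chr14:63859001-63859500, 10 CpG sites), at the gene of a GATA factor of gut and heart, had means of 0.0667 rpm in normal intestine and 0.742 rpm in adenoma.

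Input signal was low at the members. Over the members, the mean input was 0.223 rpm for B3, 0.152 rpm for N4 and 0.137 rpm for Ad7, against 0.174, 0.142 and 0.138 rpm over the other DMRs of 500 bp. The summed MeDIP signal was 4.11 times the input in B3, 5.55 times in N4 and 9.20 times in Ad7, and 1.53, 1.79 and 3.07 times over the other DMRs of 500 bp. The limit on normal signal, which includes B3 and N4, fixes this order, so it is a description. Ad7 lay above its input in all 264 members, N4 in 263 and B3 in 260. Input libraries held 3228908 to 5931425 reads, so that 1 region rests on few fragments.

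The spread between samples was set beside the counting error. The median SD of the 6 normal samples was 0.145 rpm and the approximate counting SD 0.146 rpm, and in the adenomas 0.138 and 0.189 rpm. This counting SD takes the bases in a region as whole fragments. Fragments that lie partly outside a region were not allowed for, so it is somewhat too high. The closeness of the 2 normal values is therefore not read as a result. The normal SD was under the counting SD in 139 members, or 52.7%, and the adenoma SD in 219, or 83%, against 90.7% and 93.3% of the other DMRs of 500 bp. The regions had been chosen by a rank test on these samples, so these shares are a description. Among 7 members with a normal SD of over 2 times the counting SD were *Pitx1*, *Ttll10*, *Cdkn1c* and *Gp1bb*, and no member had such an adenoma SD.

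Normal intestine of APC Min/+ mice was also compared with that of B6 mice, since the rule used the mean of the 6 normal samples and not their difference. All DMRs had, however, first passed the authors' rank test of these 6 samples against the adenomas. A region where APC Min/+ normal intestine already reached the adenoma level could have failed that test. An absence of calls among the DMRs therefore does not settle whether the genotypes differ. No member passed limma with Benjamini-Hochberg adjustment over all 13980 DMRs, where the share called was 0%, and the smallest adjusted p of a member was 0.999. An unadjusted p under 0.05 was reached by 4 members with higher signal in APC Min/+ mice, against 1.57% of all DMRs, and by 9 with lower signal, against 2.93%. This split was not stable, with 6 higher and 6 lower after each sample was scaled to the same median, 5 and 2 without B2, and 1 and 32 without N6. Shares over all DMRs were not counted for these alternatives. The median 95% interval of a member's difference, not adjusted for the number of DMRs, reached 0.45 to each side on the log2 scale. By sign, 199 members, or 75.4%, had the lower mean log2 signal in APC Min/+ mice, with a median log2 difference of -0.11, against 53.7% and -0.02 over all hypermethylated DMRs. Without N5 it was 139 members, or 52.7%, and -0.01. All 3 APC Min/+ samples lay above all 3 B6 samples in 7 members, or 2.65%, against 3.62% of all hypermethylated DMRs, and below them in 17, or 6.44%, against 4.34%. Without N5 it was 19 members above, or 7.2%, against 8.47% of all hypermethylated DMRs, and 23 below, or 8.71%, against 8.26%.

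The members with the smallest p in this comparison, named by rank and not as calls, were led by a region without a gene on chromosome 13 (chr13:73408001-73408500, 17 CpG sites). It had 0.63, 0.47 and 0.28 rpm in B1, B2 and B3, 1.07, 0.90 and 0.69 rpm in N4, N5 and N6, and 1.41, 1.31, 1.14, 1.15 and 0.98 rpm in Ad4, Ad4-1, Ad5, Ad6 and Ad7. The 3 B6 samples were the lowest of all 11, with a log2 difference of 0.92 ± 0.25 (SE, limma). *Hoxa3*, in a coding exon of a HoxA patterning gene, went the other way, with 0.78, 0.90 and 0.71 rpm in B1, B2 and B3 and 0.48, 0.27 and 0.62 rpm in N4, N5 and N6, a log2 difference of -0.80 ± 0.24 (SE, limma), and adenomas from 0.82 to 1.09 rpm. *Pls1*, an actin bundling gene of the brush border, had a log2 difference of -0.63, *Scn2b* of -0.50, a region without a gene on chromosome 12 of -0.46 and *Samd4* of 0.43, and each of these adjusted p-values was 0.999 (limma).

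The median gap to the next hypermethylated DMR was 61.5 kb, against 105 kb for the other DMRs of 500 bp, and 20.1% against 9.85% lay within 10 kb of one. Hypomethylated DMRs lay within 10 kb of 11.4% of members and 11.9% of the others. The median distance to the nearest transcription start was 7.92 kb against 14.9 kb. Besides *Itpkb*, the genes *Frem2*, *Nbea* and *Pcdh1* held 2 members each, and the annotated gene *Gm20388* held 5. Members were spread over all 19 autosomes, with the most on chromosome 11 (23, or 8.71%, against 7.01% of all hypermethylated DMRs). None lay on chromosome X, which held 33 hypermethylated DMRs. Members were 5.14% of all hypermethylated DMRs, so their absence among these 33 is not read as a trait.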

How the data were processed

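MeDIP-seq was performed on 11 ileum samples with 3 input libraries. The authors aligned reads to mm9 with Bowtie 0.12.5 (tool and build also named in the submitters' processing notes, with edgeR), kept unique alignments, collapsed reads that began at 1 position, extended them to 300 bp and averaged 50 bp bins over 500 bp windows every 250 bp. The values were deposited by the authors as RPM (reads per 1000000 unique reads, rpm) per region. Windows with a Wilcoxon p under 0.01, a ratio past 1.33 and a mean above 0.25 rpm in a group were kept and overlapping ones merged. The deposited columns of p-values and ratios hold the authors' own comparison and were not used. Values of the 7 RNA samples were not analysed here.

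The members and lists were chosen with earlier results of these data known. Adenoma and normal intestine were described without a test. APC Min/+ and B6 normal intestine were compared with limma 3.58.1 (R 4.3.3) on log2(rpm + 0.05) over all 13980 merged DMRs with Benjamini-Hochberg adjustment. The fit was checked on simulated data whose planted changes were larger than any difference between genotypes at a member. That check does not show how well smaller differences are found. B1 to B3 and N4 to N6 carry different animal numbers, and Ad4 and Ad4-1 share 1. Counting errors assume independent fragments of 300 bp and take the bases in a region as whole fragments, which makes them somewhat too high. Genes and bases came from an NCBIM37 annotation and genome, with promoters from 1000 bp upstream to 500 bp downstream of a start. Members were named if they were among the 10 with the highest normal mean, the 10 with the largest difference, the first 10 at promoters of protein-coding genes, the 6 with the most CpG sites in a strict island (500 bp), the 6 with the smallest p, or in a gene of a list. *Plagl1*, *Inpp5f* and *Cdkn1c* were added to the sequences, and other genes named, after their values were seen.

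N4, Ad4 and Ad4-1, N5 and Ad5, and N6 and Ad6 are paired because the labels give each set 1 animal. Deviations from the group means over all merged DMRs correlated at -0.11 to 0.04 within the 4 pairs of an animal and -0.06 to 0.11 in the 11 other pairs. The mean of the within-animal differences had a median of 0.342 rpm, and the unpaired difference of means 0.346 rpm. They differ only in the weight of Ad4 and Ad4-1, so their closeness does not test the pairing. Pseudocounts, filters, scaling, samples left out and definitions of features were varied.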

Additional observations from a re-analysis of the deposited data

Results flagged for a closer look

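In the region without a gene on chromosome 12 (chr12:107756751-107757250), Ad7 had 2.25 rpm and the other 4 adenomas 1.78 to 1.87 rpm. The gap between Ad7 and the next adenoma was 0.809 of the whole range of the 5 adenomas, which is past the critical value of Dixon's test for 5 samples. The test was made in 36 groups, and chance passes it in about 1 of 20 groups. Ad7 was the MeDIP library with the fewest reads, and was the only MeDIP library of its series.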

How the results depend on the processing

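No member was called between APC Min/+ and B6 normal intestine under any alternative fit (limma). The count at an unadjusted p under 0.05 (limma), 13 as reported, was 8 with 0.01 rpm added, 35 with 0.5 rpm added and 7 to 33 with 1 normal sample left out. Shares over all DMRs were not counted for these alternatives, so no trait of the members is read from them. The count of members whose normal samples did not overlap between genotypes, 24 as reported, was 33 to 66 with 1 sample left out. Members higher in APC Min/+ mice then numbered 10 to 19 and lower ones 22 to 56, since fewer samples overlap less often. Among these settings, shares over all hypermethylated DMRs were counted only without N5. The other counts are therefore not read as a trait of the members. The median log2 ratio of adenoma to normal intestine, 0.46 as reported, was 0.42 to 0.49 with 1 sample left out, with N5 and B2 at the ends, and 0.42 for members chosen without N5. It was 0.32 with 0.5 rpm added, 0.67 with samples scaled to the same median, 0.42 against B6 mice alone and 0.52 against APC Min/+ mice alone. The last 2 were chosen after seeing the data. In library series 4 alone, 229 members (86.7%, against 87.5% of all hypermethylated DMRs) were without overlap between adenoma and normal intestine. The count was 257 (97.3% against 94.2%) after scaling and 200 (75.8% against 69.1%) against APC Min/+ mice alone. The scaling medians come from DMRs chosen on this contrast, so scaling by itself raises the adenomas in the count and in the log2 ratio. Promoters were touched by 11.4% of members and 3.92% of the other DMRs of 500 bp when limited to the 5' end of the gene. With an overlap of at least 250 bp, exons were touched by 26.9% of members against 7.22% of those others, and CpG islands by 33.7% against 5.62%. Introns were then touched by 49.2% against 51.1%, while any overlap gave 62.5% against 53.9%. Islands of 500 bp, with any overlap, were touched by 20.1% against 3.15%. No fit held the animal as a term. The split of the unadjusted count between APC Min/+ and B6 mice, 4 higher and 9 lower as reported, turned to 5 and 2 without B2 and was 6 and 6 after scaling. The depth of 13.9 to 26.3 fragments at 0.6 rpm limits single regions.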
